A study of Mus musculus with 4 samples.

Results

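Cell cycle genes were examined by phase in the autopod, the hand- and foot-forming end of the limb bud, of mouse embryos with and without the Hox genes of that region. The list held 43 genes: 13 of DNA replication, 17 of mitosis, and 13 cyclins, kinases, regulators and inhibitors of the G1 phase. They are named by function, and 18193 genes in all had a probe set of their own on the array. Each gene was read from the brightest of the probe sets that the platform annotation assigns to it alone, by mean log2 signal over the 4 arrays. Such a probe set was found for 42 of the 43 genes, and all 42 were bright enough to be tested. Ccnb1 was not matched and is not analysed here.

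Total RNA came from C57BL/6 embryos at E11.25, from the part of fore- and hindlimb buds that matches the Hoxd13 expression domain. The 2 Hox13dKO samples were double homozygotes, Hoxa13-/- and HoxDdel/del, the second allele lacking Hoxd11, Hoxd12 and Hoxd13 together. The 2 control samples were wild type at these loci. Each sample was hybridised to 1 Affymetrix array, and its title calls it a biological replicate. Embryos per sample are not given in the sources used here, and p-values measure only the spread between these samples.

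Limb mesenchyme proliferates throughout outgrowth, and cells leave the cycle as cartilage condensations mature. In G1, D-type cyclins with Cdk4 or Cdk6 and E-type cyclins with Cdk2 phosphorylate the retinoblastoma protein, which releases E2F factors to switch on genes of DNA replication. Genes of mitosis are switched on later. They are controlled through the CHR motif that the DREAM and MuvB complexes bind and through CCAAT boxes bound by NF-Y. Inhibitors such as Cdkn1b and Cdkn1c hold the kinases in check.

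The promoters of these genes were searched for those motifs. RefSeq windows of 300 bases (GRCm38.p6, 250 before to 50 after the start site) were found for 11 of 13 replication genes, 14 of 17 mitosis genes and 8 of 13 G1 genes. They were searched on both strands for the E2F motifs TTTGGCGC, TTTCCCGC, TTTGCCGC and TTTCGCGC, for the CHR motif TTTGAA and for CCAAT, counting overlapping matches. An E2F motif lay in 6 of the 11 replication genes (54.5%), in 1 of 14 mitosis genes (7.14%) and in 2 of 8 G1 genes (25.0%), beside 4.64% of 10537 genes tested with a window and 2.60% of 27025 genes in all. CHR lay in 10 of 14 mitosis genes (71.4%), in 1 of 11 replication genes (9.09%) and in 1 of 8 G1 genes (12.5%), beside 14.4% of genes tested and 20.2% of all. All 10 of those mitosis genes also held CCAAT, a pair found in 6.99% of genes tested. In further genes of each process the E2F shares lay closer, at 27.3% of other replication, 13.6% of other mitosis and 25.0% of other G1 genes, and the CHR shares were 18.2%, 65.9% and 37.5%. CCAAT alone was common, in 13 of 14 mitosis genes (92.9%), 8 of 11 replication genes (72.7%), 3 of 8 G1 genes (37.5%) and 42.6% of genes tested. These are descriptions of letters and do not show that a factor binds there.

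Stretches directly before the start site are shown to contrast the phases, with E2F, CHR and CCAAT matches of either strand in capitals (overlapping matches run together), 5′ to 3′ on the strand of the gene. Mcm5 and Mcm6, subunits of the replicative helicase, carried E2F and CCAAT matches, and Rrm2, a ribonucleotide reductase subunit, carried CCAAT without an E2F match.
Mcm5, chr8:75109339-75109508, plus strand: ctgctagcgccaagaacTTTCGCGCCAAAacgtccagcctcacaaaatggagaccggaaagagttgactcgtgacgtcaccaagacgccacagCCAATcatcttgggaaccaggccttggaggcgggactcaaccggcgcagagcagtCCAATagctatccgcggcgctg
Mcm6, chr1:128359706-128359835, minus strand: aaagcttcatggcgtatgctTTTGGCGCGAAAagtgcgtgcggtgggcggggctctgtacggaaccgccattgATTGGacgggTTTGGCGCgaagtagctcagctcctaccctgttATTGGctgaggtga
Rrm2, chr12:24708124-24708253, plus strand: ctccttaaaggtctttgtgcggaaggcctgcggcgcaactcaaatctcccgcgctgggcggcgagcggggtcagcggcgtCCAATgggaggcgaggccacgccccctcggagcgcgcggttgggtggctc
Cdk1, the mitotic kinase, held all of the motifs. Cdc20, an activator of the anaphase-promoting complex, and Kif11, a spindle motor, held CHR and CCAAT.
Cdk1, chr10:69352913-69353062, minus strand: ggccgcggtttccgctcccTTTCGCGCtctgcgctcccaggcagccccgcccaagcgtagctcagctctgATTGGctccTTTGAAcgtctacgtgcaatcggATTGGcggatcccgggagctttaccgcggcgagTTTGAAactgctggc
Cdc20, chr4:118437344-118437443, minus strand: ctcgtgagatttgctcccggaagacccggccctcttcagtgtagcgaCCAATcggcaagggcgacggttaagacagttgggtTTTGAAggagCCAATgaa
Kif11, chr19:37376282-37376381, plus strand: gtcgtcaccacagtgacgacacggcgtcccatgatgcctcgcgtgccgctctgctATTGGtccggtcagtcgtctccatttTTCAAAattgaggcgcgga
Mycn, a growth regulator of limb mesenchyme, held 3 E2F matches and 1 CHR match on its reverse strand.
Mycn, chr12:12941837-12942036, minus strand: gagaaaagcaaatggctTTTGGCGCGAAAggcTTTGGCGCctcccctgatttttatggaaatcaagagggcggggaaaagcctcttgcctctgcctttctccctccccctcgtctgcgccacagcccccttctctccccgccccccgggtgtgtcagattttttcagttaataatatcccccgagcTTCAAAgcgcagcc

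**Figure D1:**
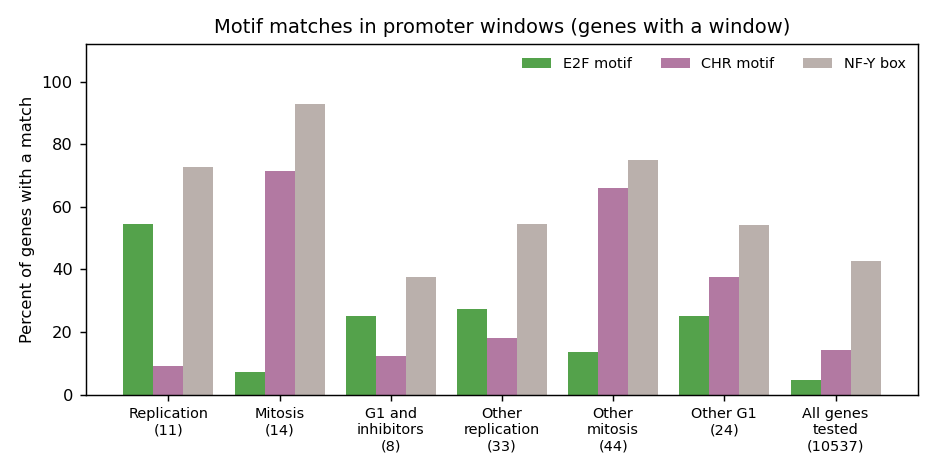
Percent of genes (vertical axis) whose promoter window held an E2F motif, a CHR motif or an NF-Y box (CCAAT), for each gene group; the number of genes with a window stands under each group. The E2F bar is highest in the replication genes (54.5%) and the CHR bar in the mitosis genes (71.4%), beside 4.64% and 14.4% in all genes tested.

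The targeted genes were read first as a check of the labels. Hoxd13, which specifies digits, had signals of 5.79 and 9.58 on the Hox13dKO arrays against 14540 and 16116 on the wild-type arrays, and Hoxa13 had 52.4 and 58.0 against 842 and 1463. Both fell, as did Hoxd12 and Hoxd11 (limma adjusted p = 6.41e-07 to 0.00778), and the groups did not overlap for any of the 4. Hoxd11, which the HoxD deletion removes, still read 348 and 454 against 1831 and 1745, and whether its probes lie within the deleted part was not checked. Wild type replicate 1 stood apart in RNA quality: its ratio of 5′ to 3′ actin signal was 0.473, and the ratios of the other arrays ran from 0.728 to 0.771. Of 7 limb mesenchyme markers, all were tested and 0 passed, and their summed signals were 26274 to 27331 in Hox13dKO and 27056 to 27981 in wild type. Of these markers 6 of 7 had negative differences, with a median of -0.21, and Prrx1, a bright mesenchymal factor, had a positive one of 0.48. That median lies beside those of the replication and mitosis genes given next, and the part of these markers' cells in those differences was not tested.

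None of the cell cycle genes differed past the threshold between Hox13dKO and wild type. In limma's moderated test, 0 of 42 had an adjusted p under 0.05, beside 0.306% of the 13072 genes tested. At an unadjusted p under 0.05 there were 4 of 42, or 9.52% (Rrm2, Plk1 and Kif20a lower, Cdkn1c higher), beside 7.25% of all genes tested. The SEs of these genes were small, with a median of 0.14 on the log2 scale against 0.22 over all genes tested. Over genes with a mean signal above 1000 it was 0.15. These SEs are moderated: 6.05 of the 8.05 degrees of freedom come from the trend over all probe sets tested and 2 from a gene's own arrays. For 41 of the 42 genes the 95% interval of the difference lay within 2-fold in either direction, the exception being Tyms, and for 30 of 42 (71.4%) it lay within 1.5-fold. Among all genes tested 65.7% and 35.6% met those limits, and among the 4506 bright genes, 96.8% and 76.7%. In whole tissue, fewer cycling cells and less RNA per cycling cell cannot be told apart.

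**Figure D2:**
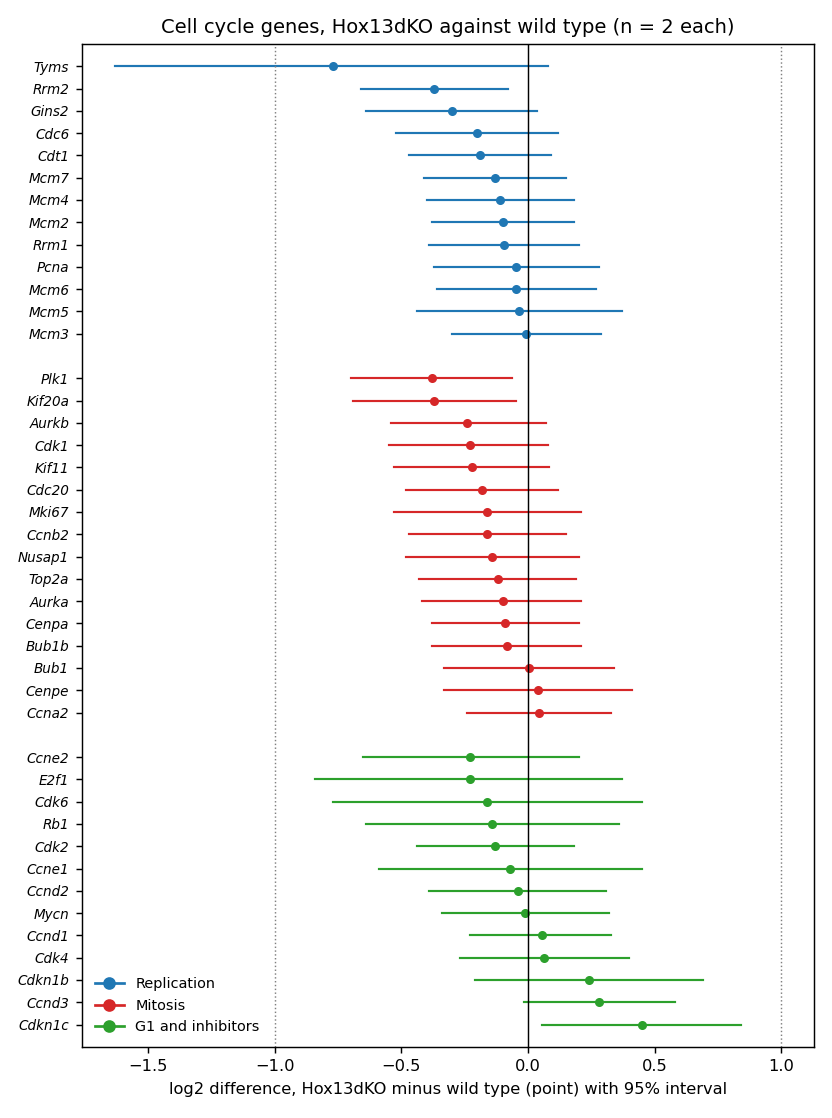
Log2 difference in signal, Hox13dKO minus wild type (points, horizontal axis), with the 95% interval from limma (lines) for each of the 42 genes, by group; dotted lines mark 2-fold, n = 2 arrays per group. All 13 replication genes lie left of 0, Tyms has the widest interval, and Cdkn1c lies farthest right at 0.45.

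Replication genes read slightly lower in Hox13dKO, with 0 of 13 past the threshold and differences of -0.77 to -0.0076. All 13 differences were negative (12 after median centring of the arrays), where 54.2% of all genes tested were (48.7% after centring). The median was -0.11 on the log2 scale, a change of -7.33% in signal, beside -0.027 over all genes tested. In 8 of 13 (61.5%) both Hox13dKO arrays lay below both wild-type arrays, beside 20.1% of all genes tested, and in 0 did they lie above, beside 17.1%. These genes are read from the same 4 arrays, so their counts are not independent observations. Leaving out each array in turn left 10 to 12 of 13 negative (10 without wild type replicate 1), and the median ran to -0.18 without wild type replicate 2. It was -0.17 when all probe sets of a gene were averaged.

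Mcm2 to Mcm7, which load at origins and unwind DNA as a ring of 6 subunits, had differences of -0.13 to -0.0076. Mcm7 read 13553 and 13852 in Hox13dKO against 15045 and 14932 in wild type, a difference of -0.13 ± 0.12 (SE). Mcm2 read 4868 and 4922 against 5215 and 5286, -0.10 ± 0.12. The groups did not overlap for Mcm2, Mcm4 and Mcm7, while Mcm3, Mcm5 and Mcm6 had wild-type arrays on both sides of a Hox13dKO array. Other probe sets of Mcm7 gave -0.23 to -0.26 and that of Mcm2 -0.28, both more negative than the brightest. Those of Mcm3 to Mcm6 gave -0.73 to 0.18, the extremes being dim probe sets of Mcm3 and Mcm5.

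Cdt1, the licensing factor that brings the helicase to origins, read 5245 and 5139 in Hox13dKO against 5985 and 5854 in wild type, with both pairs tight and apart. Its difference was -0.19 ± 0.12 (SE; 95% interval -0.47 to 0.09; limma adjusted p = 0.907), and its other tested probe set gave -0.11. Cdc6, its loading partner, read 1505 and 1491 against 1712 and 1734, a difference of -0.20 ± 0.14. Gins2, a subunit of the GINS complex that activates the helicase, read 1162 and 1243 against 1449 and 1512, again without overlap. The Gins2 difference was -0.30 ± 0.15 (95% interval -0.64 to 0.04, limma adjusted p = 0.859). Its other probe set, the one left when probe sets with names ending in _s_at, _x_at or _a_at are dropped, gave -0.06.

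Rrm2, the S-phase subunit of ribonucleotide reductase, read 11227 and 10366 in Hox13dKO against 13596 and 14233 in wild type. Its difference was -0.37 ± 0.13 (SE), a 1.29-fold lower signal with a 95% interval of -0.66 to -0.077, and it did not pass after adjustment (limma adjusted p = 0.608). By the other probe sets of Rrm2 the difference was -0.24 and -0.15. Rrm1, the large subunit, which is more stable through the cycle, read 5798 and 6436 against 6322 and 6721, with overlap, a difference of -0.094 ± 0.13. Another Rrm1 probe set, nearly as bright at 5498 and 6526 against 5283 and 6426, gave 0.04 ± 0.15. The negative sign of Rrm1 thus depends on which of these probe sets is read. Tyms, thymidylate synthase, was read only by dim probe sets, 167 and 114 against 297 and 187, and its difference of -0.77 ± 0.37 had an interval of -1.63 to 0.08 (limma adjusted p = 0.850). Without Tyms, an exclusion chosen after its values were seen, the median of the replication genes was also -0.11. Pcna, the sliding clamp of the polymerases, was the brightest at 21247 and 23374 against 21278 and 24890, and overlapped (-0.046 ± 0.14).

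Mitosis genes also read slightly lower, with 0 of 16 past the threshold. Of the 16, 13 had negative and 3 positive differences (Ccna2, Bub1 and Cenpe), from -0.38 to 0.04, with a median of -0.15, a change of -9.93% in signal. In 8 of 16 (50.0%) the Hox13dKO arrays lay below both wild-type arrays and in 0 above, beside the 20.1% and 17.1% of all genes tested. Leaving out each array in turn gave 12 to 16 negative differences of 16.

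Among mitotic kinases, Plk1, which drives centrosome maturation and mitotic entry, read 2093 and 2229 in Hox13dKO against 2653 and 2979 in wild type. Both Hox13dKO signals lay below both wild-type signals, a difference of -0.38 ± 0.14 (SE), 1.30-fold lower, with a 95% interval of -0.70 to -0.062 (limma adjusted p = 0.661). Cdk1, the kinase of mitotic entry, read 6663 and 7900 against 8401 and 8648, -0.23 ± 0.14 (limma adjusted p = 0.898). Aurkb, the kinase of the chromosomal passenger complex, read 1939 and 2025 against 2292 and 2379, -0.24 ± 0.13 (limma adjusted p = 0.893), and its other probe set gave -0.25. Aurka, the spindle pole kinase, overlapped between groups at 3164 and 3626 against 3753 and 3528. Bub1 and Bub1b, kinases of the spindle checkpoint, gave 0.0024 ± 0.14 and -0.084 ± 0.13.

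Spindle motors and cytokinesis genes varied. Kif20a, a kinesin of the central spindle, read 2778 and 2380 in Hox13dKO against 3222 and 3431 in wild type, without overlap, a difference of -0.37 ± 0.14 (SE; 95% interval -0.69 to -0.047; limma adjusted p = 0.688). Kif11, the motor that separates spindle poles, read 2237 and 2089 against 2514 and 2528, -0.22 ± 0.13. Cenpe, a kinetochore motor, overlapped and differed by 0.04 ± 0.16, and Cenpa, the histone of centromeres, by -0.091 ± 0.13. Cdc20 differed by -0.18 ± 0.13, Ccnb2, a B-type cyclin, by -0.16 ± 0.13, and Nusap1, a microtubule-binding spindle protein, by -0.14 ± 0.15. Dim other probe sets of Nusap1 and Cenpa went the other way, at 0.88 ± 0.54 and 0.50 ± 0.35, and those of Kif11 gave -0.20 and 0.084. Of 13 other probe sets tested among the mitosis genes, 8 had the sign of the brightest of their gene.

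The usual proliferation markers did not separate the groups. Mki67, the Ki-67 antigen gene, gave 7904 and 6153 in Hox13dKO against 8402 and 7199 in wild type. Top2a, the topoisomerase that untangles chromosomes, gave 12472 and 11113 against 13612 and 11995. For both genes Hox13dKO replicate 1 lay above wild type replicate 2, and the differences were -0.16 ± 0.16 and -0.12 ± 0.14 (SE). Their 95% intervals, -0.53 to 0.21 and -0.43 to 0.19, do not reach a 1.5-fold change in either direction. Ccna2, cyclin A2 of S phase and G2, differed by 0.04 ± 0.12.

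**Figure D3:**
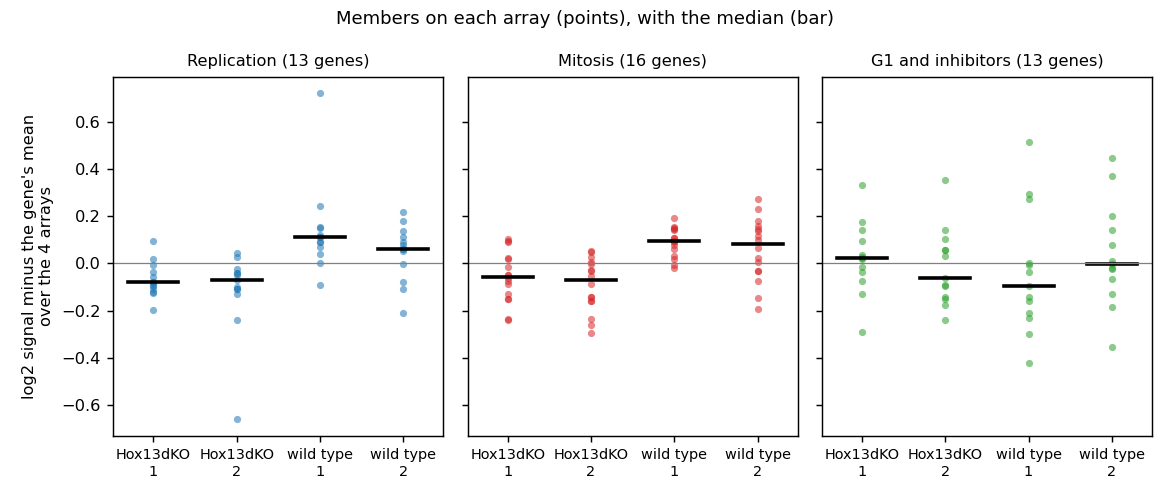
Log2 signal of each gene minus its own mean over the 4 arrays (points, vertical axis) on each array, with the median over the genes of a group (bars). The medians of replication and mitosis genes lie between -0.056 and -0.081 on the Hox13dKO arrays and between 0.06 and 0.11 on the wild-type arrays, and those of the G1 genes do not follow the groups.

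Array by array, the replication genes had a median of -0.081 and -0.072 in Hox13dKO against 0.11 and 0.06 in wild type, relative to each gene's mean. For the mitosis genes these medians were -0.056 and -0.07 against 0.10 and 0.082. In both groups of genes both Hox13dKO medians thus lay below both wild-type medians, and over all genes tested the 4 medians ran from -0.0064 to 0.022. The difference between replication and mitosis genes, with medians of -0.11 and -0.15, was not tested. For 26 of the 42 genes (61.9%) the gap within at least 1 pair of replicates exceeded the difference between the groups, beside 75.2% of all genes tested.

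G1 genes had no common direction, with 0 of 13 past the threshold, 8 negative and 5 positive differences and a median of -0.039. Only Cdk2 had both Hox13dKO arrays below the wild-type arrays (7.69%), and 3 had them above (23.1%: Ccnd1, Ccnd3 and Cdkn1c), beside 20.1% and 17.1% of all genes tested. Without wild type replicate 2 the median was 0.10 and 5 of 13 were negative, so its sign rests on that array. The array medians overlapped, with 0.022 and -0.062 for Hox13dKO against -0.10 and -0.0025 for wild type.

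Inhibitors and Ccnd3 held the highest values. Cdkn1c, the inhibitor p57 of cyclin-dependent kinases, read 10114 and 12110 in Hox13dKO against 7070 and 9323 in wild type. All Hox13dKO signals lay above all wild-type signals, with wild type replicate 1 the lowest. The difference was 0.45 ± 0.17 (SE), 1.36-fold higher, with a 95% interval of 0.06 to 0.84 (limma adjusted p = 0.688). It was 0.25 without wild type replicate 1, the array with the low actin ratio, and 0.65 without wild type replicate 2. Cdkn1b, the inhibitor p27, overlapped at 1277 and 948 against 863 and 1012, 0.24 ± 0.20 (limma adjusted p = 0.934; 0.021 without Hox13dKO replicate 1). Ccnd3, cyclin D3, read 4042 and 3844 against 3345 and 3147, 0.28 ± 0.13 (95% interval -0.014 to 0.58; limma adjusted p = 0.824), and its dim other probe sets gave 0.21 and -1.03.

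Ccnd1, Ccnd2 and Cdk6 had probe sets that disagreed in sign. Ccnd1, cyclin D1, read 5662 and 5677 in Hox13dKO against 5430 and 5493 in wild type, a small gap without overlap (0.05 ± 0.12 SE), while its other probe sets gave 0.52 and -0.078. Cdk4 read 13432 and 15602 against 12830 and 14947 and differed by 0.06 ± 0.14. Cdk6 ranged most in wild type, 1622 and 888, around Hox13dKO signals of 1122 and 1029 (-0.16 ± 0.26), and its other probe sets gave -0.074 and, at a dim signal, 1.26. Ccnd2, the cyclin D2 gene, was read by 7 probe sets with differences of -0.16 to 1.10. Its brightest gave 10551 and 9953 against 9292 and 11933 (-0.039 ± 0.15), and the dimmest, at 559 and 528 against 160 and 401, gave 1.10 ± 0.40 (limma adjusted p = 0.655).

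That dim Ccnd2 probe set was lowest on wild type replicate 1, the array with the low actin ratio. Over the 49 probe sets of members other than the brightest, wild type replicate 1 was the lowest array for 22 (44.9%), beside 35.6% of the corresponding probe sets of all genes. Over the 42 brightest it was the lowest for 6 (14.3%), beside 24.5% of all. The part of RNA quality in these differences was not tested. Of those 49 probe sets, 36 had the same sign as the brightest of their gene: 16 of 18 in replication, 8 of 13 in mitosis and 12 of 18 in G1. None of the 91 member probe sets tested passed in limma.

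No E-type cyclin or member of the Rb-E2F axis passed, and each 95% interval spanned 0. Ccne2, cyclin E2, read 1217 and 1018 in Hox13dKO against 1474 and 1148 in wild type, with overlap, a difference of -0.23 ± 0.18 (SE; 95% interval -0.65 to 0.20; limma adjusted p = 0.934). Ccne1, cyclin E1, differed by -0.072 ± 0.23, and their kinase gene Cdk2 by -0.13 ± 0.13. E2f1, an activator of replication genes, read 437 and 555 against 461 and 727, -0.23 ± 0.26, and Rb1, the retinoblastoma gene, -0.14 ± 0.22. Mycn read 5081 and 4155 against 4621 and 4643, its wild-type signals lying between those of Hox13dKO, and differed by -0.012 ± 0.14.

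**Figure D4:**
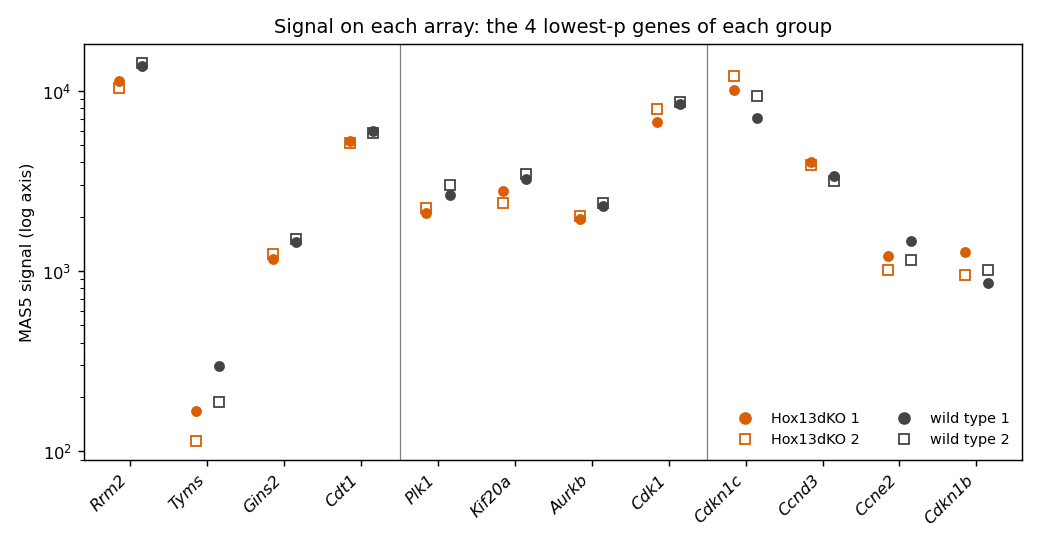
MAS5 signal (vertical log axis) on each of the 4 arrays for the 4 genes of lowest p in each group, separated by vertical lines: replication, mitosis, G1. Hox13dKO signals lie below wild type for the first 8 genes and above it for Cdkn1c and Ccnd3, while Ccne2 and Cdkn1b overlap; differences ran from -0.77 to 0.45 on the log2 scale.

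Further genes of the same processes, listed by function, were read in the same way. Of 38 other replication genes 0 passed in limma, 30 were negative and the median was -0.12. The lowest p belonged to Rfc3, a clamp loader subunit (-0.35 ± 0.14 SE), Fen1, the flap nuclease of lagging-strand synthesis (-0.31 ± 0.14), and Gins3, another GINS subunit (-0.41 ± 0.19). Of 52 other mitosis genes 0 passed, 50 were negative and the median was -0.15. Nek2, a centrosome kinase, read 1270 and 1148 in Hox13dKO against 1660 and 1909 in wild type, -0.56 ± 0.15 (limma adjusted p = 0.396). Spc25, of the Ndc80 kinetochore complex, differed by -0.41 ± 0.13 and Cenpn, a centromere protein, by -0.56 ± 0.20. Without wild type replicate 1 the medians of these lists were -0.081 and -0.088, with 29 of 38 and 40 of 52 negative.

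Other G1 genes again had no common direction, with 0 of 29 past the threshold, 16 negative and a median of -0.025 (0.011 after median centring). Without wild type replicate 2 the median was -0.13, with 18 of 29 negative. Myc read 301 and 369 in Hox13dKO against 209 and 218 in wild type, 0.64 ± 0.26 (SE; limma adjusted p = 0.741). Cdkn2b, an inhibitor of Cdk4 and Cdk6, was dim at 93.6 and 121 against 81.0 and 26.9 (1.19 ± 0.64), and E2f2 read 234 and 239 against 322 and 324 (-0.45 ± 0.25). At an unadjusted p under 0.05 there were 1, 3 and 1 genes among the other replication, other mitosis and other G1 genes. These shares (2.63%, 5.77% and 3.45%) were all below the 7.25% of all genes tested. In 57.9% of other replication and 44.2% of other mitosis genes both Hox13dKO arrays lay below the wild-type arrays, as in the chart of non-overlapping genes.

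**Figure D5:**
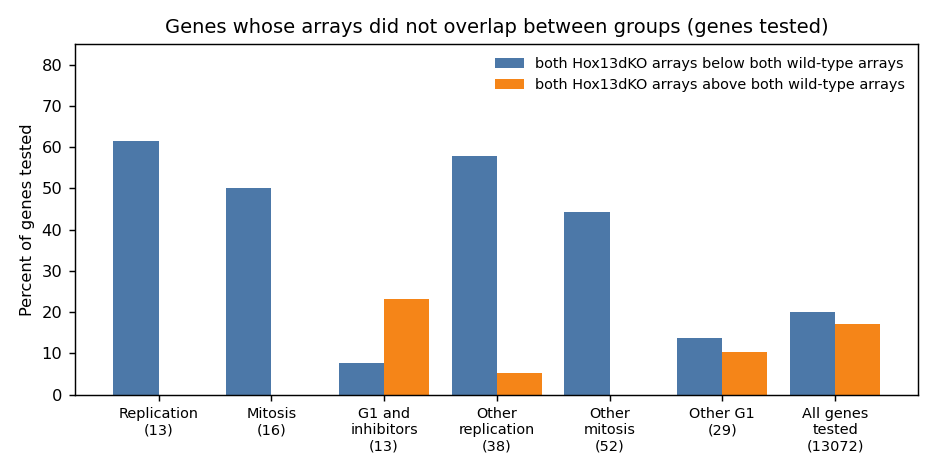
Percent of genes tested (vertical axis) whose Hox13dKO arrays lay both below (blue) or both above (orange) the wild-type arrays, by gene group, with the number of genes under each. Below-wild-type shares are 61.5% and 50.0% for replication and mitosis genes and 57.9% and 44.2% for the other genes of those processes, beside 20.1% over all genes tested.

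Markers of cells outside the mesenchyme were read beside these values. Muscle markers were higher in sum, 1462 and 3374 in Hox13dKO against 379 and 384 in wild type. Of 6 tested, 1 passed the threshold (Actc1), beside 0.306% of all genes tested. Actc1 alone read 880 and 2252 against 116 and 92.7. Of the 6 tested, 5 had positive differences, and Pax3, at dim signals, had a negative one of -1.16. In 4 (66.7%: Actc1, Myog, Myod1 and Myf5) both Hox13dKO arrays lay above both wild-type arrays, beside 17.1% of all genes tested. The unadjusted p in limma was under 0.05 for the same 4, beside 7.25%. Endothelial markers summed to 3187 and 3978 against 2755 and 2970 (0 of 7 past), without overlap. All 7 had positive differences. For 2 (28.6%), Cdh5 (0.77) and Kdr (0.75), the arrays did not overlap and the unadjusted p in limma was under 0.05. Macrophage markers summed to 1309 and 1424 against 1037 and 1295 (0 of 6 past), also without overlap. The macrophage gap was small, and of those 6 markers 4 had positive and 2 negative differences (Csf1r -0.032 and Ptprc -0.072). Erythroid sums of 91875 and 106487 against 75392 and 98351 (0 of 5 past) overlapped, carried by the bright globins. All 5 tested erythroid markers had positive differences, 3 of them without overlap, beside 17.1% of all genes tested with both Hox13dKO arrays above. For 2 the unadjusted p was under 0.05, beside 7.25% of all genes tested. These were Alas2, of heme synthesis (1.13), and Klf1, an erythroid factor (0.85). The globins Hbb-bh1, Hbb-y and Hba-x differed by 0.33, 0.12 and 0.088. Ectoderm sums of 6945 and 8950 against 7491 and 6826 (0 of 7 past) overlapped. No marker was at 0, and Pax3, Pax7, Myog, Hba-a1 and C1qa lay below the 14.1-unit floor on 1 or 2 arrays each. The part of these cells in the cell cycle differences, that of Cdkn1c included, was not tested.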

How the data were processed

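Expression was measured on 4 Affymetrix arrays, 2 of Hox13dKO and 2 of wild-type autopods. The authors deposited 1 signal intensity per probe set on a linear scale, made with MAS5 per the submitters' processing notes, with no version in the sources used here. The trimmed mean was 500.003 on each array. Scanner files and detection calls were not used here, which leaves background unknown for dim probe sets. Of 45101 probe sets, 64 controls were left out. Values under the 20th percentile, 14.1 units, were raised to it before log2, and tests ran on the 27022 probe sets whose geometric mean reached 39.6 units.

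Groups were compared with limma 3.58.1 (R 4.3.3; lmFit, eBayes with trend, two-sided, Benjamini-Hochberg over all probe sets, threshold 0.05; 8.05 degrees of freedom for intervals), without pairing. Steps were tested on simulated data. The members and lists were chosen with earlier results of these data known. All members could be named; those given in full had the lowest p of their list (4 each), and of other cell cycle genes the 3 with the lowest p. Alternatives covered scaling, floor, filter, variance model, pairing, probe sets, left-out arrays and threshold. Symbols of 42 members were matched to RefSeq by gene ID, and promoters came from RefSeq (GRCm38.p6). Figures used matplotlib 3.10.9. With 2 arrays per group, their number limits the precision.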

Additional observations from a re-analysis of the deposited data

How the results depend on the processing

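No cell cycle gene passed in limma under any alternative tried except the replicate block. The 12 genes given in full kept their sign in all 178 refits, though not their size. Settings that changed only the filter, the variance model, the pairing or the number of probe sets fitted could not move the difference. Kept signs there carry no information, and the 12 genes were picked by lowest p in these same data. With an array left out, Cdkn1b ran from 0.021 to 0.45, Cdkn1c from 0.25 to 0.65, Ccne2 from -0.41 to -0.045, Cdk1 from -0.36 to -0.11 and Tyms from -1.11 to -0.44. Without probe sets whose names end in _s_at, _x_at or _a_at, Gins2 was -0.06, Rrm2 -0.24 and Cdt1 -0.11. With the replicate number as a block 2 passed, Cdkn1c (adjusted p = 0.0185) and Rrm2 (adjusted p = 0.0449), and over all probe sets the count went from 56 to 418. Same-numbered arrays deviated together with a correlation of 0.20, but nothing in the labels pairs them and there are only 2 pairs, so the block was not used. The count of 56 was 199 after median centring, 0 without the filter, 1 without the intensity trend, 95 with 1 probe set per gene, 111 at an adjusted p of 0.10 and 11 to 525 with an array left out (11 without Hox13dKO replicate 2, 525 without wild type replicate 2). Without the filter 0 members passed. As 0 probe sets passed in all there, and 1 without the intensity trend, those settings could hardly call a member.

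The median of replication genes, -0.11, was -0.074 after median centring (which moved the median of all genes from -0.027 to 0.0083), -0.17 when a gene's probe sets were averaged and -0.18 to -0.13 with an array left out. That of mitosis genes, -0.15, was -0.12 after median centring. Without probe sets whose names end in _s_at, _x_at or _a_at it was also -0.12, but over fewer genes. Aurkb and Kif20a then drop out, and 37 of the 42 members remain. With the next brightest probe set it was -0.12, though only 10 of the 16 genes had another one tested and the rest kept theirs. When a gene's probe sets were averaged it was -0.11. With an array left out it ran from -0.16 to -0.12. That of G1 genes, -0.039, was -0.11 with the next brightest probe set (9 of 13 genes had another one tested). With an array left out it ran from -0.06 to 0.10. The causes were not tested. Where an array is left out, the remaining one of its pair is taken to vary as the other group does.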

Other observations

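Differences were also set beside the promoter motifs, as a description with no test. Mitosis genes with both CHR and CCAAT in their window (10 genes) had a median log2 difference of -0.16. The 3 measured ones without both had a median of 0.0024 (Bub1 0.0024, Cenpe 0.039 and Nusap1 -0.14). Ccna2 (0.045), Aurkb (-0.24) and Kif20a (-0.37) had no window and are in neither set. Replication genes with an E2F motif (6 genes) had a median of -0.088 and those without (5 genes) -0.10. Over all genes tested, the 489 with an E2F motif had a median of -0.059 and the 737 with CHR and CCAAT -0.045, beside -0.027 over the 10537 with a window.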
